A study of Mus musculus with 25 samples.

Results

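The stroma of tumours grown in the liver was compared with the stroma of tumours grown in the peritoneal cavity of the same 4 mice. All genes of the count table were compared, and 8 of the 25 libraries of the series entered the comparison, 4 of liver stroma and 4 of peritoneal stroma. The hosts were athymic nude mice (Crl:NU(NCr)-Foxn1nu), which make few T cells because they lack a thymus. The tumour cells were BMEL cells, a bipotential hepatic progenitor line derived from an embryonic mouse liver, that carried the HRasG12V oncogene and a fluorescent protein. They were injected into the liver with Matrigel, and the study took the peritoneal tumours to have grown most likely from cells that leaked at the injection. Which Ras population each of these 4 mice received, and their age, are not given in the sources used here. Both tumours of a mouse were dissociated with enzymes, and the cells without GFP fluorescence were sorted as stroma, so each library is a mixture of all cell types without GFP that survived dissociation. Mouse numbers 1 to 4 tie the libraries of a mouse, and values below are listed in that order. Means joined by "against" are those of liver and then of peritoneal stroma, with the SD over 4 libraries. All values are CPM, read counts relative to the scaled library size, and they compare libraries for one gene and not one gene with another.

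Tumour stroma holds the host's fibroblasts, vessels and immune cells, and each organ supplies its own kinds. In the liver, blood flows through sinusoids lined by a fenestrated endothelium with strong scavenger activity, Kupffer cells sit in those sinusoids as resident macrophages, stellate cells store vitamin A, and hepatocytes make most plasma proteins. The peritoneal cavity is lined by mesothelium over a connective tissue with fibroblasts, fat, lymphatic vessels and mast cells, and its fluid holds resident macrophages that depend on Gata6. Fibroblasts also keep a record of their place in the body in the set of Hox genes that they transcribe.

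The stromal label was first checked against marker genes. On a scale set over all 16 sorted libraries, the sum of 8 leukocyte genes, Ptprc (CD45) among them, lay between 3527 and 6520.4 CPM in stroma and between 40.4 and 140.4 CPM in the sorted tumour cells. The sum of the fibroblast list was between 4871 and 81316 CPM in stroma and between 100.1 and 1664 CPM in tumour cells. The markers of cholangiocytes and liver progenitors, the lineage of the injected cells, went the other way, with 1156 to 2527 CPM in stroma and 8686 to 11419.7 CPM in tumour cells. Whether tumour cells without GFP were among the sorted stroma was not tested. Total counts were 27048224 to 40345401 in liver and 23129017 to 32723797 in peritoneal stroma, which puts 3 counts, the floor used below for genes without reads, at 0.0725 to 0.134 CPM. One library stood apart. The peritoneal stroma of mouse 1 had a correlation of log values of 0.969 to 0.973 with the other 3 peritoneal libraries, which had 0.981 to 0.982 among themselves. The summed neutrophil markers were 6091, 954, 1003 and 1081 CPM in the peritoneal stroma of mice 1 to 4. Many of the results that rest on the peritoneal library of mouse 1 are given with and without it.

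Of 24984 genes in the table, 14755 had enough counts to be tested. The stroma of the 2 sites differed in many of them and unevenly by site: 496 genes were higher in liver stroma and 1472 in peritoneal stroma, at an adjusted p under 0.05 in edgeR's quasi-likelihood test and a log2 fold change beyond 1 in either direction. These are 3.36% and 9.98% of the genes tested, and all counts of gene lists below are to be read against those shares. The CPM values of the groups did not overlap for 4985 genes, 33.8% of those tested. The higher peritoneal count went with larger differences. The median log2 fold change, liver minus peritoneum, was 1.38 over the genes called for liver and −2.05 over those called for peritoneum, and 62 and 404 of them differed by more than 8-fold. The direction was shared by all 4 mice for 485 of the 496 and for 1457 of the 1472. By CPM, 72.8% of the genes called for liver and 89.1% of those called for peritoneum were higher in stroma than in tumour cells sorted at the same site. Over all tested genes the share was 50.4%, but from means over both sites. Genes picked for a high stromal value at a site lean toward stroma, so these shares are no check of which cells express them.

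The split depended on what was held equal. The scaling assumes that most genes do not differ, and by it the summed leukocyte genes were 6146, 5239, 6107 and 6187 CPM in liver stroma and 4243, 3569.8, 3813 and 4277 CPM in peritoneal stroma, so the groups did not overlap. When libraries were scaled to the leukocyte genes instead, the median of all genes moved by −0.574 on the log2 scale and the calls became 169 for liver and 2800 for peritoneum, or 5.69% of calls for liver in place of 25.2%. In bulk RNA, fewer cells of a type and less RNA per cell cannot be told apart, so a higher value below can stand for more cells, for more RNA in each, or for less of everything else.

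**Figure D1:**
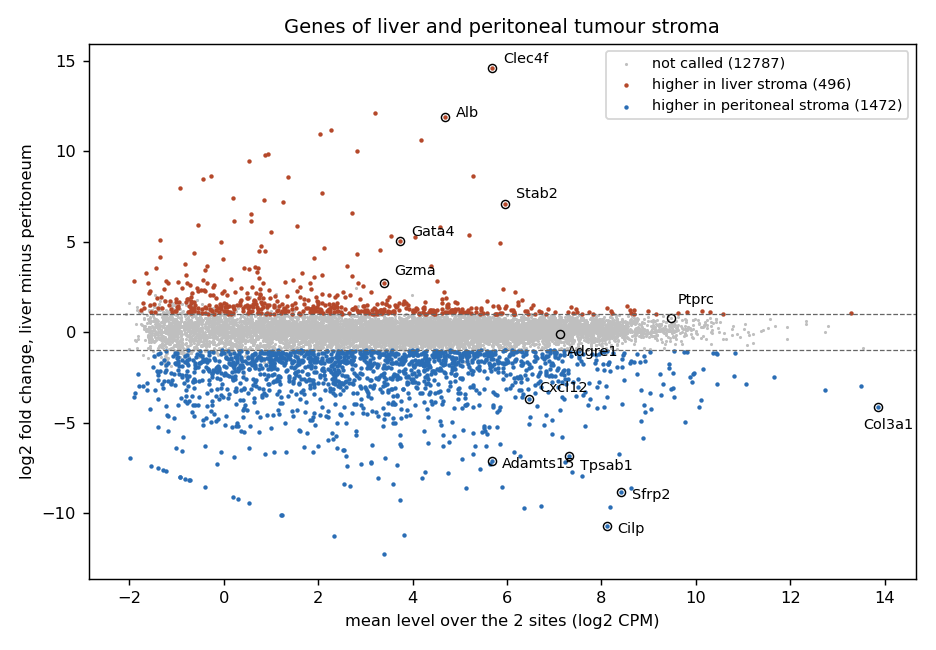
Difference between the sites for each of the 14755 tested genes, as the log2 fold change of liver minus peritoneal stroma (vertical axis) against the mean level over the 2 sites in log2 CPM (horizontal axis), with called genes coloured by site and some genes named. Of the genes called for peritoneum 404 differed by more than 8-fold and 242 exceeded 100 CPM in peritoneal stroma, and of those called for liver 62 and 43. The fitted height of a gene without reads at one site depends on the small count added in the fit.

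Genes of hepatocytes, the parenchymal cells of the liver, were among the largest differences toward liver stroma. Of 26 hepatocyte genes listed, 18 had enough counts to be tested, 12 of these were higher in liver stroma, none was higher in peritoneal stroma, and their median log2 fold change was 2.0 against 0.02 over all genes tested. Alb, serum albumin, had 42, 112, 38.3 and 12.4 CPM in liver stroma and 0, 0, 0.0325 and 0 CPM in peritoneal stroma. The liver stroma of mouse 2 was the highest and that of mouse 4 the lowest, and a single read was counted in all peritoneal libraries together. The ratio of the groups was 5587 (95% counting interval 1002 to 220718). The 3 chains of fibrinogen, the clotting protein that hepatocytes secrete, were also highest in mouse 2 and lowest in mouse 4. Fga had 13.4, 41.9, 12.1 and 5.76 CPM in liver stroma and 0, 0, 0 and 0 CPM in peritoneal stroma, at least 137-fold higher in liver stroma, counting the floor of 3 counts in each peritoneal library. Fgb had 33.5, 62.4, 29.9 and 18.3 CPM in liver stroma and a ratio of 1968 (95% counting interval 545 to 16257), and Fgg 9.73, 31.2, 11.1 and 4.5 CPM with a ratio of 1521 (95% counting interval 273 to 60101). Bhmt and Mat1a, enzymes of methionine metabolism, Serpina1c, an antitrypsin, and Fgl1, a secreted liver protein, had no read in any peritoneal library. They were at least 72.1-fold, 61.8-fold, 21.8-fold and 27.3-fold higher in liver stroma. The levels were low: Bhmt had 5.19, 27.6, 4.28 and 1.51 CPM and Serpina1c 2.25, 7.03, 1.64 and 0.756 CPM.

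Hepatocyte products with more reads at both sites moved the same way. Apoa1, the main protein of high-density lipoprotein, had 10.05, 23.3, 17.9 and 2.92 CPM in liver stroma and 1.52, 0.357, 0.39 and 0.403 CPM in peritoneal stroma, and the groups did not overlap (log2 fold change 4.32, SE 0.70, adjusted p = 0.00125; 5.10 without the peritoneal stroma of mouse 1). Hpx, the plasma carrier of haem, had 22.7 ± 11.1 CPM in liver and 0.559 ± 0.248 CPM in peritoneal stroma (SD, n = 4), and Apoc1, an apolipoprotein, 11.3 ± 4.9 CPM in liver and 0.881 ± 0.166 CPM in peritoneal stroma. Their log2 fold changes were 5.33, SE 0.49, adjusted p = 3.78e-05, and 3.68, SE 0.34, adjusted p = 3.82e-05. The summed level of the hepatocyte list was between 2019 and 2605 CPM in liver stroma and between 1154 and 1721 CPM in peritoneal stroma, but Trf, transferrin, made up 81.2% of it on average, and tumour cells held as much of the list (1305 to 2823 CPM on the 16-library scale). The tumour cells sorted from liver had 15.1 ± 12.6 CPM of Alb and those from the peritoneum 0.223 ± 0.356 CPM (mean ± SD, n = 4). Leaving out 1 library at a time left between 9 and 16 members called for liver and a median between 1.56 and 4.86. Of 24 cytochrome P450 and conjugating enzymes, 14 were too low to be tested at either site, among them Cyp3a11, Cyp1a2 and Cyp7a1. Of the 10 tested, 3 were called for liver and 2, Cyp1b1 and Cyp7b1, for peritoneum, with a median of −0.29. The summed level of the list was between 239 and 274 CPM in liver stroma and between 380 and 450 CPM in peritoneal stroma. Cyp1b1 was its largest part, at 28.5% on average.

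The promoters of 3 of these genes are shown because hepatocyte transcription is known to rest on the Hnf1 factors, which bind paired half-sites. In 250 bases before the start of each gene, from RefSeq on GRCm38.p6, the half-site letters GTTAAT or their reverse complement ATTAAC were in 6 of 13 promoters of the 12 hepatocyte genes called for liver, in 10.4% of 424 promoters of all genes called for liver, in 4.87% of 1335 promoters of genes called for peritoneum, in 4.41% of 14593 promoters of tested genes and in 6.43% of all 32851 promoters. Letters of a Gata site (AGATAA or TTATCT) were in 10.6% of the promoters of genes called for liver and 6.23% of those of tested genes, and those of a PU.1 site (GAGGAAGT or ACTTCCTC) in 3.3% and 2.68%. The hepatocyte genes with the half-site letters were Alb, Fga, Fgb, Pck1, Serpina1a and Serpina1b. Fgg, Apoa1, Apoa2, Ambp, Cyp2e1 and Ahsg had no match, and the sequences below were taken from genes with one. Such a match is a string of letters, not evidence of binding. A promoter was found for 11498 of the 14755 tested genes. In the 3 sequences below, written from 5′ to 3′ on the strand of the gene, capitals mark the match. Alb lies at chr5:90460620-90460869 on the plus strand, Fga at chr3:83025903-83026152 on the plus strand and Fgb at chr3:83049864-83050113 on the minus strand.
Alb: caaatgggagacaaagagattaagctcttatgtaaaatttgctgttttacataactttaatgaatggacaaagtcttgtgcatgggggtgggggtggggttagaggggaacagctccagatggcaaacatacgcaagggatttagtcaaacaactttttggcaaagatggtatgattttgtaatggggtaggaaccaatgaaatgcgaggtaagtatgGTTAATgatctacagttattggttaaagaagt
Fga: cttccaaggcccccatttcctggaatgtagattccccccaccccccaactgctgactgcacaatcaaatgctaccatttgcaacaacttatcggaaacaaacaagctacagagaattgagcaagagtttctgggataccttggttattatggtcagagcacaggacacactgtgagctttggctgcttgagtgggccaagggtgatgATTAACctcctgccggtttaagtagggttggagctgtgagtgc
Fgb: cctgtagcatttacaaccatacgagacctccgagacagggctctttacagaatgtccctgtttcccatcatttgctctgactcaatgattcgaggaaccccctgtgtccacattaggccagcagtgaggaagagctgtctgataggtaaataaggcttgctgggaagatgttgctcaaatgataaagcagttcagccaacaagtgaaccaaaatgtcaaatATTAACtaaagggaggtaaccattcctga
The match stood 32 bases before the start of Alb, 43 before that of Fga and 29 before that of Fgb, on the opposite strand in the fibrinogen genes.

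Calls of endothelial genes differed by the kind of endothelium that they mark. Of 17 tested genes of liver sinusoidal endothelium, 12 were higher in liver stroma and 1, Wnt2, in peritoneal stroma, with a median log2 fold change of 1.86. Stab2, the hyaluronan scavenger receptor of sinusoids, had 70.4, 227, 111 and 86.6 CPM in liver stroma and 1.83, 0.58, 0.52 and 0.623 CPM in peritoneal stroma, so the lowest liver library was far above the highest peritoneal one (log2 fold change 7.10, SE 0.54, adjusted p = 1.23e-05; 7.72 without the peritoneal stroma of mouse 1). Clec4g, a sinusoidal lectin, had 39.9, 141, 83.6 and 46.3 CPM in liver stroma and 0.564, 0.0446, 0.13 and 0 CPM in peritoneal stroma (log2 fold change 8.63, SE 0.70, adjusted p = 1.91e-05; 10.18 without the peritoneal stroma of mouse 1). Mouse 2 had the highest liver value of both. Gpr182, a chemokine scavenger of sinusoids, had 71.9 ± 46.8 CPM in liver and 1.71 ± 1.5 CPM in peritoneal stroma (SD, n = 4; log2 fold change 5.38, SE 0.62, adjusted p = 1.60e-04; 6.20 without the peritoneal stroma of mouse 1). Oit3 had 47 ± 27.3 CPM in liver and 0.812 ± 0.239 CPM in peritoneal stroma and a log2 fold change of 5.83, SE 0.43, adjusted p = 1.15e-05.

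Other called genes of the sinusoidal list were a transcription factor and secreted signals. Gata4, the transcription factor that sets sinusoidal identity, had 20.1, 42.1, 21.9 and 19.7 CPM in liver stroma and 0.705, 0.714, 0.455 and 1.32 CPM in peritoneal stroma without overlap (log2 fold change 5.02, SE 0.37, adjusted p = 1.15e-05). Wnt9b, a Wnt ligand of the central vein and sinusoids, was low but higher in liver stroma, with 1.47, 1.07, 1.08 and 0.612 CPM in liver stroma and 0.211, 0, 0 and 0.0733 CPM in peritoneal stroma (log2 fold change 3.79, SE 0.72, adjusted p = 0.00316; 5.19 without the peritoneal stroma of mouse 1). Bmp2, which sinusoidal endothelium sends to hepatocytes to control iron through hepcidin, had 24.7, 70.7, 40.6 and 28.6 CPM in liver stroma and 21.2, 9.99, 5.65 and 8.32 CPM in peritoneal stroma, with the peritoneal stroma of mouse 1 close to the lowest liver value (log2 fold change 1.86, SE 0.44, adjusted p = 0.00966). The general endothelial genes did not pass the test. Pecam1 (CD31) had 153, 191, 210.1 and 189.6 CPM in liver stroma and 180.4, 137, 147 and 153 CPM in peritoneal stroma and Cdh5, VE-cadherin, 137, 248, 113 and 142 CPM in liver stroma and 179, 104, 118 and 110.5 CPM in peritoneal stroma. Both groups overlapped, with log2 fold changes of 0.27, SE 0.12, adjusted p = 0.113, and 0.32, SE 0.25, adjusted p = 0.367, and both turned to −0.30 and −0.21 under leukocyte scaling. Of 20 genes of continuous blood endothelium none was called for liver and 4 for peritoneum, with a median of 0.17. Aplnr, the apelin receptor of sprouting and venous endothelium, had 4.11, 2.85, 1.95 and 2.31 CPM in liver stroma and 51.4, 39.9, 35.5 and 29 CPM in peritoneal stroma (log2 fold change −3.78, SE 0.26, adjusted p = 7.61e-06), and its ligand Apln 10.2, 10.4, 6.97 and 6.63 CPM in liver stroma and 19.5, 41.7, 39.8 and 29.6 CPM in peritoneal stroma (log2 fold change −1.93, SE 0.25, adjusted p = 3.79e-04). Cd34, which fibroblasts also carry, had 36.2, 42.7, 41.7 and 35.1 CPM in liver stroma and 258, 186, 184 and 129 CPM in peritoneal stroma (log2 fold change −2.28, SE 0.19, adjusted p = 2.16e-05). In the 3 genes no liver library reached a peritoneal one.

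Lymphatic genes were higher in peritoneal stroma, 6 of 9 tested with a median of −1.93, and 1, Flt4, the VEGF-C receptor that sinusoids share, was higher in liver stroma. Mmrn1, a multimerin of lymphatic endothelium, had 0.266, 0.162, 0.31 and 0.144 CPM in liver stroma and 32, 15.5, 13.6 and 8.47 CPM in peritoneal stroma (log2 fold change −6.25, SE 0.50, adjusted p = 1.65e-05), and the peritoneal stroma of mouse 1 was highest. Pdpn, podoplanin, which fibroblasts make too, had 6.42, 9.85, 26.7 and 7.89 CPM in liver stroma and 84.8, 154, 139.9 and 77.5 CPM in peritoneal stroma (log2 fold change −3.16, SE 0.46, adjusted p = 6.66e-04; −3.82 without the liver stroma of mouse 3, which was the highest of its group). Prox1, the regulator of lymphatic fate, was called by a narrow margin (log2 fold change −1.06, SE 0.33, adjusted p = 0.0317), and its call held in 3 of 8 fits that left out 1 library each. Without the liver stroma of mouse 1, 3 or 4, or the peritoneal stroma of mouse 1 or 2, its log2 fold change was −1.13, −0.93, −0.90, −0.93 and −0.95 and failed the test. Its groups overlapped.

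General macrophage genes did not separate the sites, while markers of particular macrophages did. None of 12 general macrophage genes was called, with a median of −0.01 and summed levels between 6325 and 7547 CPM in liver stroma and between 5194 and 8612 CPM in peritoneal stroma. Adgre1 (F4/80) had 186, 115, 128 and 102 CPM in liver stroma and 193, 94.8, 139 and 154 CPM in peritoneal stroma and C1qa, a chain of complement C1q, 742, 608, 775 and 567 CPM in liver stroma and 996, 493, 747 and 964 CPM in peritoneal stroma, in both cases with overlapping groups (log2 fold changes of −0.13, SE 0.23, adjusted p = 0.713, and −0.25, SE 0.21, adjusted p = 0.403). Under leukocyte scaling the median of the 12 genes was −0.58, and without the peritoneal stroma of mouse 1 Adgre1 was at 0.02. Csf1r, the receptor that keeps macrophages alive, did not overlap, with 1318 ± 65.8 against 989 ± 160.1 CPM, yet its difference was under the fold threshold (log2 fold change 0.41, SE 0.12, adjusted p = 0.027) and was −0.15 under leukocyte scaling.

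Kupffer genes, in contrast, were called for liver in 8 of 16 and for peritoneum in 1, with a median of 1.40. Clec4f, the lectin by which mouse Kupffer cells are recognised, had 86.5, 198, 64.8 and 61.7 CPM in liver stroma and 0, 0, 0 and 0 CPM in peritoneal stroma and was at least 768-fold higher in liver stroma. No peritoneal library held a read of it, and mouse 2 was again highest. Cd5l, a macrophage survival protein, had 109, 198, 69.2 and 71.3 CPM in liver stroma and 7.37, 2.32, 0.422 and 4.77 CPM in peritoneal stroma (log2 fold change 4.91, SE 0.67, adjusted p = 4.40e-04). Vsig4, a complement receptor that captures blood-borne bacteria, had 40.02, 67.5, 24.2 and 23.6 CPM in liver stroma and 6.1, 0.848, 0.942 and 4.29 CPM in peritoneal stroma (log2 fold change 3.66, SE 0.62, adjusted p = 0.00166). Neither gene overlapped between the groups. Clec1b (CLEC-2), whose ligand is podoplanin, had 19.1 ± 7.43 against 0.792 ± 0.291 CPM (log2 fold change 4.57, SE 0.33, adjusted p = 1.04e-05), and Slc40a1, ferroportin, by which macrophages export the iron of old red cells, 102 ± 43.1 against 19.3 ± 5.06 CPM (log2 fold change 2.40, SE 0.29, adjusted p = 2.14e-04). Spic, the transcription factor of iron-recycling macrophages, had 2.56, 6.64, 1.77 and 2.02 CPM in liver stroma and 1.09, 0, 0.812 and 0.623 CPM in peritoneal stroma and passed the test (log2 fold change 2.32, SE 0.71, adjusted p = 0.0314), but not with the mouse as a block (2.16, adjusted p = 0.0954) nor without the liver stroma of mouse 2 (1.71, adjusted p = 0.0961), the peritoneal stroma of mouse 3 (2.44, 0.0593) or that of mouse 4 (2.29, 0.0665).

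Scavenger receptors on the list did not all follow that pattern. Cd163, the haemoglobin scavenger receptor, was the Kupffer gene called for peritoneum, with 32.8, 57.5, 35.3 and 34.8 CPM in liver stroma and 491, 73.2, 106 and 153 CPM in peritoneal stroma (log2 fold change −2.36, SE 0.55, adjusted p = 0.00866; −1.48 without the peritoneal stroma of mouse 1, which was far above the rest). Marco, a scavenger receptor, had 18.8, 32, 31.8 and 19.4 CPM in liver stroma and 6.27, 0.982, 0.682 and 16.2 CPM in peritoneal stroma and no overlap, with a log2 fold change of 2.07, SE 0.77, adjusted p = 0.0655; it passed without the peritoneal stroma of mouse 4 (3.24, adjusted p = 0.00666). The liver stroma of mouse 2 held the highest summed Kupffer level (749, 1300.3, 671 and 633 CPM in the order of mice), the highest sinusoidal level and the most Alb. The peritoneal Kupffer sums were 1020.5, 319, 386 and 499 CPM, so both sites overlapped. The sinusoidal sums overlapped too, at between 1939 and 2994 CPM in liver stroma and between 1371 and 2773 CPM in peritoneal stroma. In mouse 1 both sums were higher in peritoneal stroma. Neither sum measures its cell type alone. Cdh5, also a general endothelial gene, made up 20.6% of the Kupffer sum on average. Mrc1, also on the general macrophage list, made up 35.1% of the sinusoidal sum. In the peritoneal stroma of mouse 1, Cd163 held 491 CPM of the Kupffer sum, while Stab2 of the sinusoidal list was at 1.83 CPM. The part of the Kupffer, sinusoidal and Alb levels in the differences between the liver libraries was not tested.

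The genes of large peritoneal macrophages were not a mirror image. Of 16 tested, 2 were higher in liver stroma, 3 in peritoneal stroma, and their median was 0.00. Gata6, the factor on which those cells depend, had 19.5, 26.4, 32.3 and 22.7 CPM in liver stroma and 27.3, 36.3, 25.9 and 27.9 CPM in peritoneal stroma, with overlapping groups and a log2 fold change of −0.22, SE 0.17, adjusted p = 0.349. Lbp, a lipopolysaccharide-binding protein, had 20.3, 26.5, 22.3 and 18.7 CPM in liver stroma and 309.7, 281, 188 and 286 CPM in peritoneal stroma (log2 fold change −3.60, SE 0.18, adjusted p = 2.26e-06), and Prg4, a lubricating proteoglycan that mesothelium and fibroblasts also make, 19.5, 66, 41.5 and 25.2 CPM in liver stroma and 88.8, 158, 53.6 and 77.6 CPM in peritoneal stroma (log2 fold change −1.31, SE 0.41, adjusted p = 0.0346). The groups overlapped for Prg4, which lost its call without the liver stroma of mouse 1, 3 or 4 or the peritoneal stroma of mouse 2, at −1.09, −1.36, −1.16 and −0.96. Other markers of recruited and alternatively activated macrophages were divided. Retnla (RELMα), an alternative activation product, had 1.71, 0.842, 2.42 and 2.92 CPM in liver stroma and 63.6, 48, 14.9 and 23 CPM in peritoneal stroma (log2 fold change −4.25, SE 0.52, adjusted p = 2.42e-04), and Fcrls, an Fc receptor-like protein of resident macrophages, 7.47 ± 1.75 against 76.9 ± 31.2 CPM (log2 fold change −3.36, SE 0.28, adjusted p = 2.33e-05). Both were higher in every peritoneal library than in any liver library. Ccl24, an eosinophil attractant made by alternatively activated macrophages, was higher in liver stroma, with 732, 428, 532 and 491 CPM in liver stroma and 136, 182, 169 and 317 CPM in peritoneal stroma (log2 fold change 1.44, SE 0.26, adjusted p = 0.00256; 0.87 under leukocyte scaling). Of the 12 genes of lipid-associated tumour macrophages, Gpnmb and Cd63 were higher in peritoneal stroma (log2 fold changes of −1.72, SE 0.27, adjusted p = 0.00105, and −1.26, SE 0.11, adjusted p = 3.74e-05). Trem2, the lipid receptor of such macrophages, was at −0.91, SE 0.30, adjusted p = 0.0399, and passed both thresholds without the liver stroma of mouse 3 (−1.06) or the peritoneal stroma of mouse 2 (−1.13).

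**Figure D2:**
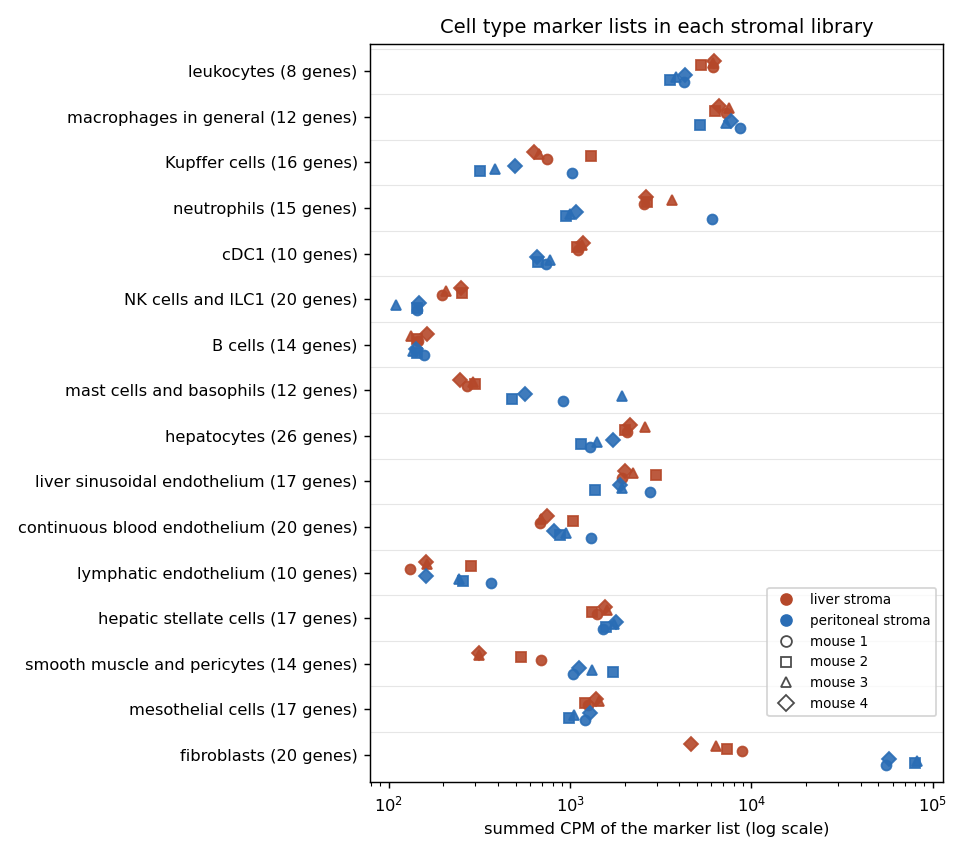
Summed CPM of the marker genes of each cell type in the 4 liver and 4 peritoneal stromal libraries, on a log axis, with 1 symbol per library. The fibroblast sums, 4622 to 8887 CPM in liver and 55408 to 82022 CPM in peritoneal stroma, are the furthest apart among these lists, and the neutrophil sum of 1 peritoneal library, 6091 CPM, lies away from its group.

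The genes of NK cells and group 1 innate lymphoid cells (ILC1), which kill stressed cells and make interferon, were higher in liver stroma in 9 of 15 tested members and in none toward peritoneum, with a median of 1.40. Gzma, a granzyme, had 11.9, 21.2, 19.1 and 20.8 CPM in liver stroma and 3.45, 2.5, 1.75 and 3.19 CPM in peritoneal stroma (log2 fold change 2.74, SE 0.25, adjusted p = 4.15e-05), and Gzmb 12.5, 16.6, 13.4 and 14.6 CPM in liver stroma and 5.15, 3.97, 1.04 and 2.13 CPM in peritoneal stroma (log2 fold change 2.22, SE 0.39, adjusted p = 0.00209). Klrd1 (CD94), a receptor subunit of NK cells, had 3.41 ± 0.234 against 0.857 ± 0.293 CPM (log2 fold change 1.99, SE 0.27, adjusted p = 4.32e-04), and Prf1, perforin, 5.35 ± 1.83 against 1.57 ± 0.576 CPM (log2 fold change 1.77, SE 0.36, adjusted p = 0.00417). In these 4 genes every liver library was above every peritoneal library. Ncr1 (NKp46), the receptor most used to stain NK cells, had 2.85, 8.19, 4.65 and 7.06 CPM in liver stroma and 2.11, 3.66, 1.07 and 1.83 CPM in peritoneal stroma, with overlap between the lowest liver and the highest peritoneal libraries (log2 fold change 1.40, SE 0.41, adjusted p = 0.0263). Its call held in 3 of the 8 fits with 1 library left out, and without the liver stroma of mouse 2 or 4 or the peritoneal stroma of mouse 1, 3 or 4 the log2 fold change was 1.17, 1.28, 1.37, 1.15 and 1.31 at an adjusted p of 0.0688, 0.0681, 0.0526, 0.0628 and 0.0641. The summed level of the list was between 197 and 254 CPM in liver stroma and between 110.1 and 147 CPM in peritoneal stroma. It is not a measure of NK cells alone, since Itga2 made up 27.1% of it on average. On the 16-library scale, tumour cells held more of the list (427 to 533 CPM) than stroma (109 to 264 CPM). Under leukocyte scaling 5 members stayed called and the median was 0.83, and over the fits without 1 library between 6 and 11 were called.

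B cell genes were also higher in liver stroma, 8 of 13 with a median of 1.96. Ms4a1 (CD20), a surface protein of B cells, had 3.43, 4.47, 4.77 and 6.74 CPM in liver stroma and 0.317, 1.16, 0.357 and 0.843 CPM in peritoneal stroma (log2 fold change 2.88, SE 0.41, adjusted p = 6.41e-04), and Cr2, the complement receptor of mature B cells, 3.05 ± 0.563 against 0.265 ± 0.136 CPM (log2 fold change 3.53, SE 0.40, adjusted p = 1.56e-04). No peritoneal library reached a liver library in either gene. Ebf1, an early B cell factor that fat and fibroblast precursors also use, was the exception, with 10.6, 6.48, 3.66 and 5.55 CPM in liver stroma and 68.9, 58.8, 53.9 and 44.6 CPM in peritoneal stroma (log2 fold change −3.09, SE 0.29, adjusted p = 4.51e-05). It was also the largest part of the summed level of the list, so that sum overlapped, at between 133 and 162 CPM in liver stroma and between 136 and 156 CPM in peritoneal stroma. Cxcr5, which brings B cells into follicles, followed the B cell genes (4.89 ± 1.02 against 1.0 ± 0.648 CPM, log2 fold change 2.29, SE 0.41, adjusted p = 0.00226).

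T cell genes were called in both directions, in hosts without a thymus. Of 13 tested, 3 were called for liver and 1 for peritoneum, with a median of 0.66. Without the peritoneal stroma of mouse 1, 6 were called for liver, with a median of 0.90, and over all fits without 1 library between 1 and 6. Cd3e had 1.3, 1.33, 2.29 and 1.37 CPM in liver stroma and 8.25, 8.74, 8.16 and 19 CPM in peritoneal stroma (log2 fold change −2.81, SE 0.34, adjusted p = 2.19e-04), and the peritoneal stroma of mouse 4 was highest. Cd3d, its partner in the T cell receptor complex, had 0.459, 0.907, 0.713 and 0.396 CPM in liver stroma and 1.83, 0.312, 0.455 and 0.477 CPM in peritoneal stroma and overlapped (log2 fold change −0.33, SE 0.57, adjusted p = 0.701; 0.54 without the peritoneal stroma of mouse 1). Foxp3 and Cd5 were too low to be tested. Ctla4, an inhibitory receptor of activated and regulatory T cells, had 3.54 ± 0.886 against 1.18 ± 0.291 CPM (log2 fold change 1.59, SE 0.27, adjusted p = 0.00179).

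Some dendritic cell genes were called for liver stroma, and fewer under leukocyte scaling. Clec9a, the dead-cell receptor of cross-presenting dendritic cells (cDC1), had 35.6, 39.1, 32.2 and 32.2 CPM in liver stroma and 15.9, 14.5, 17.8 and 8.5 CPM in peritoneal stroma without overlap (log2 fold change 1.29, SE 0.20, adjusted p = 8.88e-04), and 3 of 10 cDC1 genes were called for liver, and 1 without the peritoneal stroma of mouse 1. Siglech, of plasmacytoid dendritic cells, had 29.2, 18.6, 22.5 and 16.4 CPM in liver stroma and 17.3, 7.67, 7.15 and 3.01 CPM in peritoneal stroma, overlapped, and was called at 1.30, SE 0.43, adjusted p = 0.0408. That call fell in 6 of the 8 fits with 1 library left out, those without any 1 liver library (1.12, 1.37, 1.28 and 1.41 for mice 1 to 4) and those without the peritoneal stroma of mouse 2 (1.23) or 3 (1.20). Of 11 plasmacytoid genes 2 were called for liver, 7 without the peritoneal stroma of mouse 1 and 6 with the mouse as a block. Under leukocyte scaling Clec9a was at 0.71 and Siglech at 0.73, 0 cDC1 and 1 plasmacytoid genes were called for liver, and the cDC1 median went from 0.76 to 0.19.

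Neutrophil genes rested on the peritoneal stroma of mouse 1. S100a8, a calprotectin subunit of neutrophils, had 182, 285, 329 and 195 CPM in liver stroma and 1037, 59.9, 55.6 and 58.9 CPM in peritoneal stroma, so that 1 library exceeded all others and the log2 fold change was −0.29, SE 0.91, adjusted p = 0.839. Without it S100a8 was higher in liver stroma (2.07, adjusted p = 1.27e-04). Of 15 neutrophil genes 4 were called for liver with all libraries and 14 without that one, and none for peritoneum in either. Csf3r, the G-CSF receptor, passed with all libraries at 524, 580.0, 570.0 and 453 CPM in liver stroma and 256, 243, 274 and 242 CPM in peritoneal stroma (log2 fold change 1.07, SE 0.10, adjusted p = 4.32e-05), as did Il1r2, the decoy receptor for interleukin 1 (545 ± 107 against 231 ± 56.2 CPM, log2 fold change 1.23, SE 0.20, adjusted p = 0.00112). Under leukocyte scaling 0 neutrophil genes were called, and Csf3r fell to 0.50, Il1r2 to 0.65 and Mmp9 to 0.46. Mmp9, a gelatinase that neutrophils store, had 506, 257, 568 and 284 CPM in liver stroma and 256, 185, 130.4 and 215 CPM in peritoneal stroma (log2 fold change 1.04, SE 0.29, adjusted p = 0.0198), but failed with the mouse as a block (0.99, adjusted p = 0.0364) and without the liver stroma of mouse 1 (0.91) or 3 (0.83) or the peritoneal stroma of mouse 2 (1.004) or 3 (0.88).

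Mast cell genes were higher in peritoneal stroma, 7 of 12 with a median of −3.54, while Mcpt8, of basophils, was called for liver. That call was lost with the mouse as a block, with lane as a term, under leukocyte scaling, and without the stroma of mouse 2, 3 or 4 at either site. Tpsab1, a tryptase, had 1.74, 2.88, 3.44 and 2.99 CPM in liver stroma and 264, 124, 701 and 179 CPM in peritoneal stroma (log2 fold change −6.85, SE 0.62, adjusted p = 3.51e-05; −6.11 without the peritoneal stroma of mouse 3). Tpsb2, a second tryptase, had 1.38 ± 0.501 CPM in liver and 153 ± 129 CPM in peritoneal stroma (log2 fold change −6.82, SE 0.65, adjusted p = 4.97e-05; −6.06 without that library). Cma1 and Mcpt4, chymases of connective tissue mast cells, had log2 fold changes of −5.57, SE 0.53, adjusted p = 4.98e-05, and −4.13, SE 0.48, adjusted p = 1.61e-04. Mouse 3 had the highest peritoneal value of each of these genes. Cpa3, the mast cell carboxypeptidase, had 4.83, 5.89, 5.86 and 7.31 CPM in liver stroma and 99.4, 51, 195 and 44.7 CPM in peritoneal stroma (log2 fold change −4.03, SE 0.47, adjusted p = 1.72e-04), and Mrgprb1 0.121, 0.13, 0.186 and 0.036 CPM in liver stroma and 11.3, 6.87, 21.7 and 6.16 CPM in peritoneal stroma (log2 fold change −6.54, SE 0.56, adjusted p = 2.66e-05). Gata2, a factor of mast cells that endothelium shares, overlapped at 9.08, 13.8, 10.2 and 12.2 CPM in liver stroma and 18.2, 11.3, 26.9 and 11.1 CPM in peritoneal stroma (log2 fold change −0.58, SE 0.28, adjusted p = 0.143).

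Genes of fibroblasts, the cells that lay down most matrix, were higher in peritoneal stroma. Of 20 fibroblast genes 18 were higher in peritoneal stroma and none in liver stroma, with a median log2 fold change of −3.33, and the summed level was between 4622 and 8887 CPM in liver stroma and between 55408 and 82022 CPM in peritoneal stroma. All 8 fits without 1 library called 18. Col1a1, a chain of type I collagen, had 3537, 2751, 2199 and 1694 CPM in liver stroma and 13418, 24884, 24832 and 18557 CPM in peritoneal stroma (log2 fold change −3.004, SE 0.28, adjusted p = 3.99e-05). Col3a1, type III collagen, had 1964, 1839, 1601 and 914 CPM in liver stroma and 24997, 31124, 33933 and 22334 CPM in peritoneal stroma (log2 fold change −4.15, SE 0.27, adjusted p = 6.01e-06), and Col1a2 1360.4 ± 341 against 12298 ± 3082 CPM (log2 fold change −3.18, SE 0.24, adjusted p = 1.37e-05). The lowest peritoneal library held several times the highest liver library in all 3. The peritoneal stroma of mouse 1 was the lowest of its group for Col1a1.

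The largest differences of the fibroblast list were in 4 genes that were at a few CPM or less in liver stroma, unlike Cd34 and Pdpn. Lrrc15, a marker of myofibroblasts in tumours, had 0.193, 0.227, 0.62 and 0.216 CPM in liver stroma and 106, 181, 92.6 and 91.6 CPM in peritoneal stroma (log2 fold change −8.55, SE 0.39, adjusted p = 1.30e-06). Dpt, dermatopontin, a matrix protein of universal fibroblasts, had 2.66, 1.33, 1.39 and 0.72 CPM in liver stroma and 585, 370.0, 419 and 162 CPM in peritoneal stroma (log2 fold change −7.93, SE 0.52, adjusted p = 6.47e-06). Mmp3, stromelysin, had 0.623 ± 0.449 against 98.4 ± 27.2 CPM (log2 fold change −7.30, SE 0.43, adjusted p = 4.44e-06), and Mfap5, a microfibril protein, 2.0 ± 1.04 against 299 ± 105 CPM (log2 fold change −7.19, SE 0.43, adjusted p = 4.44e-06). No liver library came near a peritoneal one. Liver stroma still held 1964, 1839, 1601 and 914 CPM of Col3a1, and which liver cells supplied it was not tested. Of 14 genes of hepatic stellate cells, 1, Colec10, was called for liver and 4 for peritoneum, with a median of −0.10; Lrat, Gfap and Colec11, among their defining genes, were too low to be tested at either site.

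**Figure D3:**
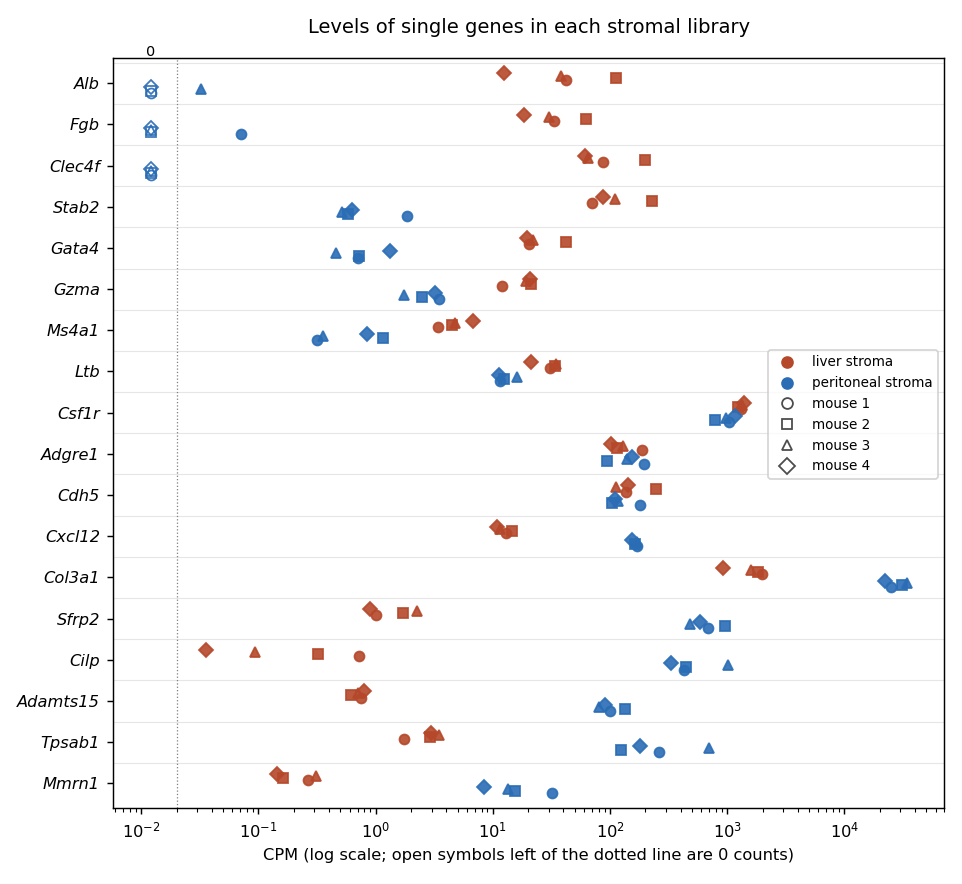
CPM per library (log axis) of 18 genes, with liver and peritoneal stroma in separate colours, 1 symbol per mouse, and open symbols at the left edge for 0 counts. Alb, Fgb and Clec4f lie at 0 or at 1 to 2 reads in peritoneal stroma, Col3a1, Sfrp2, Cilp and Tpsab1 lie far higher in peritoneal than in liver stroma, and Adgre1 and Cdh5 overlap.

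Collagens as a family were higher in peritoneal stroma, 17 of 19 tested and none in liver stroma, with a median of −2.74 and sums between 6533 and 12384 CPM in liver stroma and between 62069.5 and 93709 CPM in peritoneal stroma. The 19 did not overlap between the groups, against 33.8% of all genes. Col14a1, which organises fibrils, had 67.3, 46.4, 26.3 and 32.5 CPM in liver stroma and 1051, 976, 980.1 and 706 CPM in peritoneal stroma (log2 fold change −4.43, SE 0.30, adjusted p = 7.61e-06). Elastic fibre and matricellular genes were called for peritoneum in 27 of 28, with a median of −3.35. Fbn1, fibrillin 1, had 143, 126, 112 and 70.03 CPM in liver stroma and 1818, 1977, 2647 and 1642 CPM in peritoneal stroma (log2 fold change −4.16, SE 0.25, adjusted p = 4.44e-06), and Eln, elastin, 28.8, 32.5, 76.5 and 19.2 CPM in liver stroma and 512, 261, 249 and 268 CPM in peritoneal stroma (log2 fold change −3.04, SE 0.43, adjusted p = 6.07e-04; −2.74 without the peritoneal stroma of mouse 1, the highest for Eln). Aspn and Ogn, small leucine-rich proteoglycans, had log2 fold changes of −6.62, SE 0.56, adjusted p = 2.23e-05, and −6.72, SE 0.54, adjusted p = 1.74e-05, and Aspn −7.51 without the liver stroma of mouse 1. Cilp, a cartilage intermediate layer protein that binds TGFβ1, had 0.725, 0.324, 0.0929 and 0.036 CPM in liver stroma and 429, 444, 1010.1 and 334 CPM in peritoneal stroma (log2 fold change −10.72, SE 0.66, adjusted p = 4.98e-06; −11.77 without the liver stroma of mouse 1). It was among the 12 largest differences.

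Matrix proteases and their inhibitors followed in 15 of 24 tested, and Mmp9 alone was called for liver. Mmp2, a gelatinase of fibroblasts, had 71.5, 52.5, 61.4 and 34.9 CPM in liver stroma and 826, 926, 1192 and 649 CPM in peritoneal stroma (log2 fold change −4.03, SE 0.26, adjusted p = 6.31e-06), and Adamts5, an aggrecanase, 13.7 ± 2.13 against 149 ± 34.6 CPM (log2 fold change −3.44, SE 0.19, adjusted p = 3.28e-06). Adamts15, another protease of that family and 1 of the 6 genes with the smallest p toward peritoneum, had 0.749, 0.615, 0.713 and 0.793 CPM in liver stroma and 99.8, 133, 80.7 and 91.1 CPM in peritoneal stroma (log2 fold change −7.13, SE 0.20, adjusted p = 6.68e-08). Its groups were narrow and far apart. The same held for Sned1, a matrix protein (1.85 ± 0.334 against 86.5 ± 11.8 CPM, log2 fold change −5.54, SE 0.16, adjusted p = 6.68e-08), Svep1, an adhesive protein that lymphatic vessels require (4.99 ± 0.39 against 283 ± 60.7 CPM, log2 fold change −5.82, SE 0.19, adjusted p = 1.17e-07), Scn7a, a sodium channel (1.1 ± 0.281 against 57.7 ± 4.11 CPM, log2 fold change −5.73, SE 0.16, adjusted p = 6.68e-08), and Galnt17, a glycosyltransferase (0.0352 ± 0.0296 against 26.4 ± 2.39 CPM, log2 fold change −9.31, SE 0.28, adjusted p = 8.60e-08; −9.97 without the liver stroma of mouse 1).

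Contractile genes were higher in peritoneal stroma, 6 of 14 with a median of −1.41. Acta2, smooth muscle actin, had 146, 92, 72.7 and 46.2 CPM in liver stroma and 207, 428, 336 and 244 CPM in peritoneal stroma (log2 fold change −1.77, SE 0.34, adjusted p = 0.00356), Rgs5, of pericytes, 48, 38.7, 9.26 and 11.3 CPM in liver stroma and 172, 165, 115 and 107 CPM in peritoneal stroma (log2 fold change −2.38, SE 0.50, adjusted p = 0.00519), and Cspg4 (NG2) 9.05 ± 2.19 against 39.3 ± 11.2 CPM (log2 fold change −2.12, SE 0.24, adjusted p = 1.48e-04). The liver libraries of mice 1 and 2 were above those of mice 3 and 4 for Rgs5. Markers of mesothelium, the lining of the cavity, gave a divided picture. Msln, mesothelin, had 41.7, 49.1, 67.1 and 48.7 CPM in liver stroma and 36.9, 42.2, 37.2 and 44.5 CPM in peritoneal stroma and overlapped (log2 fold change 0.36, SE 0.14, adjusted p = 0.0761; −0.22 under leukocyte scaling). Wt1, a mesothelial transcription factor, had 17.5, 25.8, 26.1 and 14.3 CPM in liver stroma and 37.8, 56.6, 66.3 and 42.9 CPM in peritoneal stroma (log2 fold change −1.28, SE 0.23, adjusted p = 0.00245), and Efemp1, a fibulin, 8.82, 18, 22.2 and 8.25 CPM in liver stroma and 180.1, 113, 51 and 134 CPM in peritoneal stroma (log2 fold change −3.06, SE 0.43, adjusted p = 5.87e-04). In all, 3 of 17 mesothelial genes were called for peritoneum and none for liver, and the tumour cells held more of the list (7497 to 10819 CPM) than stroma (972 to 1515 CPM). The list includes the keratins Krt8, Krt18 and Krt19, whose part in the tumour cell sum was not tested. Skeletal muscle genes were low, with 4 of 9 called for peritoneum. Acta1, the actin of skeletal muscle, had 0.242, 0.227, 0.248 and 0.324 CPM in liver stroma and 34.4, 7.05, 3.48 and 9.86 CPM in peritoneal stroma (log2 fold change −5.71, SE 0.77, adjusted p = 4.41e-04; −4.71 without the peritoneal stroma of mouse 1).

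Hox genes, which record position in the body, differed as a family. Fibroblast genes differed in the same direction, with a list median of −3.33. The part of fibroblast share in the Hox differences was not tested. Of 39 Hox genes, 26 had enough counts, 18 were higher in peritoneal stroma, none in liver stroma, and the median log2 fold change was −2.15. The calls differed by cluster and number. All 5 tested genes of cluster C and all 4 of cluster D were called, with medians of −3.38 and −4.94, against 4 of 9 in cluster A and 5 of 8 in cluster B, with medians of −0.99 and −1.73. Within clusters A and B, 7 of 8 genes numbered 6 to 10 were called, with a median of −2.16, and 2 of 9 numbered 1 to 5 (Hoxa5 and Hoxb2), with a median of −0.42. Hoxb9 had 0.0725, 0, 0.031 and 0 CPM in liver stroma and 2.01, 4.02, 4.97 and 3.59 CPM in peritoneal stroma (log2 fold change −6.75, SE 0.60, adjusted p = 3.11e-05; −7.89 without the liver stroma of mouse 1), with no read in the liver stroma of mice 2 and 4. Hoxd8 had 0.121, 0.453, 0.496 and 0.18 CPM in liver stroma and 8.6, 12, 12.3 and 7.81 CPM in peritoneal stroma (log2 fold change −5.03, SE 0.39, adjusted p = 1.43e-05), and Hoxd4 0.0242, 0.0648, 0.124 and 0 CPM in liver stroma and 1.45, 2.94, 2.5 and 1.91 CPM in peritoneal stroma (log2 fold change −5.26, SE 0.56, adjusted p = 1.03e-04; −6.01 without the liver stroma of mouse 3). The levels were a few CPM in peritoneal stroma and a small part of that in liver stroma.

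**Figure D4:**
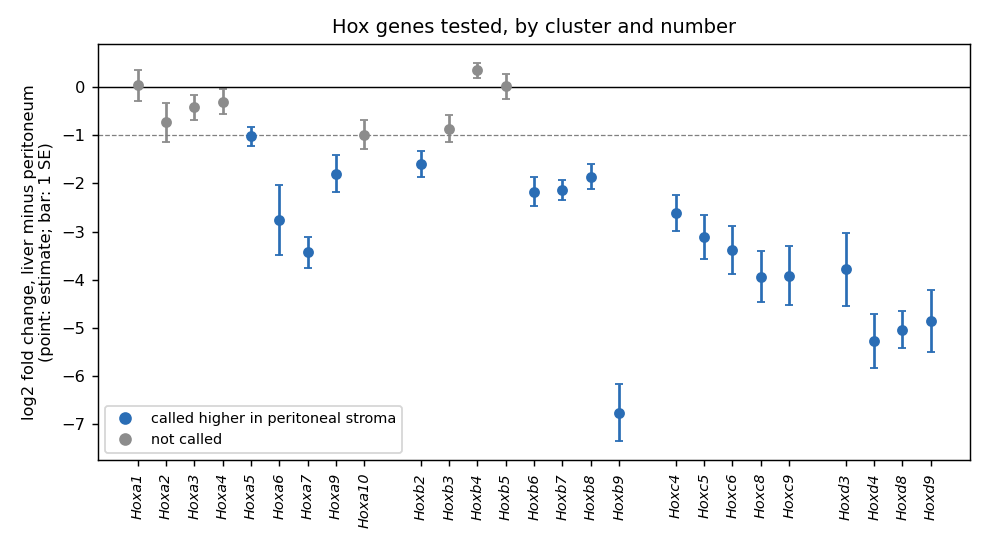
Log2 fold change of liver minus peritoneal stroma for each of the 26 tested Hox genes (vertical axis), ordered by cluster and by number within the cluster (horizontal axis), with bars of 1 SE and called genes in colour. Genes of clusters C and D all lie at or below −2.62, and in clusters A and B the genes numbered 1 to 5 lie between −1.59 and 0.34.

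Other transcription factors of position were split by site, with 5 of 42 called for liver and 8 for peritoneum. Toward liver stroma these were Gata4, Tbx20, Nr5a2, Spic and Foxf2. Toward peritoneal stroma, Osr2, a regulator of mesenchymal patterning, had 0.0966, 0.162, 0.062 and 0.18 CPM in liver stroma and 11.6, 14.1, 9.16 and 10.8 CPM in peritoneal stroma (log2 fold change −6.50, SE 0.29, adjusted p = 1.15e-06). Tbx5, known from forelimb and heart, had 0.0242, 0.0324, 0.124 and 0.036 CPM in liver stroma and 3.42, 1.47, 2.21 and 0.843 CPM in peritoneal stroma (log2 fold change −5.12, SE 0.63, adjusted p = 2.38e-04; −5.86 without the liver stroma of mouse 3), and Tbx3 0.866 ± 0.37 against 14.1 ± 2.24 CPM (log2 fold change −4.005, SE 0.29, adjusted p = 1.04e-05). Ebf2, a factor of adipocyte precursors, had no read in liver stroma and 30.8, 19.3, 17.4 and 16.3 CPM in peritoneal stroma, at least 194-fold. It had the largest fitted difference toward peritoneum.

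Several of the other largest differences toward peritoneum were also at or near 0 in liver stroma. Duox1, a hydrogen peroxide-making oxidase, was at least 93.8-fold higher, with 14.3, 8.43, 8.25 and 9.57 CPM, and Wnt16, a Wnt ligand, at least 43.4-fold, with 7.3, 6.87, 0.715 and 3.89 CPM and mouse 3 lowest. Scg3, a granin of secretory granules, was at least 42.6-fold higher, with 12.1, 2.14, 2.66 and 1.5 CPM and mouse 1 highest, and Agtr2, an angiotensin receptor, at least 26.9-fold, with 5.01, 1.52, 3.87 and 1.25 CPM. None of the 4 had a read in liver stroma. Angptl1, an angiopoietin-like secreted protein, had 1 read in liver stroma and 35.8, 27.4, 30.2 and 19.7 CPM in peritoneal stroma. Its ratio, peritoneum over liver, was 3764 (95% counting interval 675 to 148722). Tnn, tenascin N, had 0.338, 0.227, 0 and 0.144 CPM in liver stroma and 72.4, 348, 103 and 131 CPM in peritoneal stroma (log2 fold change −9.74, SE 0.75, adjusted p = 1.39e-05; −10.34 without the liver stroma of mouse 1, and −9.07 without the peritoneal stroma of mouse 2, the highest). Ptx3, a soluble pattern recognition protein that fibroblasts secrete, had 0.169, 0.162, 0.589 and 0.144 CPM in liver stroma and 263, 202, 175 and 199 CPM in peritoneal stroma (log2 fold change −9.61, SE 0.33, adjusted p = 2.26e-07; −10.32 without the liver stroma of mouse 3). Toward liver stroma, Ctsj, a cathepsin known from placenta, and Ush1g, a scaffold protein known from hair cells, had no read in peritoneal stroma and were at least 28.5-fold and 12.5-fold higher, at 2.49, 3.24, 5.73 and 3.78 and 0.918, 3.43, 1.21 and 1.12 CPM. Igfbp1, an insulin-like growth factor binding protein of liver, had 4.2, 5.51, 7.59 and 3.13 CPM in liver stroma and 1 read in peritoneal stroma, a ratio of 556 (95% counting interval 99.5 to 21994).

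Among secreted signals, the Sfrp inhibitors of Wnt ligands were higher in peritoneal stroma. Sfrp2 had 1.01, 1.72, 2.26 and 0.901 CPM in liver stroma and 688, 962, 479 and 582 CPM in peritoneal stroma (log2 fold change −8.85, SE 0.38, adjusted p = 9.60e-07), and Sfrp4 0.58, 1.13, 0.589 and 0.504 CPM in liver stroma and 616, 618, 902 and 183 CPM in peritoneal stroma (log2 fold change −9.69, SE 0.59, adjusted p = 4.73e-06). Sfrp1 had 6.45, 7.51, 2.08 and 3.49 CPM in liver stroma and 164, 282, 274 and 254 CPM in peritoneal stroma (log2 fold change −5.63, SE 0.40, adjusted p = 8.88e-06). No liver library exceeded 10 CPM of any of the 3, which bind Wnt ligands outside the cell. Over the 32 tested BMP, activin and Wnt genes, 6 were called for liver and 12 for peritoneum, so ligands and inhibitors went both ways, with Wnt9b, Rspo3, Bmp2, Bmp7, Grem1 and Smad6 toward liver and Wnt2, Wnt2b, Wnt11, Nog, Fst, Bmper, Dkk3, Lgr5 and Axin2 beside the Sfrp genes toward peritoneum. The median was −0.28.

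Growth factors of vessels and mesenchyme were called for peritoneum in 10 of 26 and for liver in none. Fgf7, which acts on epithelium, had 0.0242, 0.194, 0.031 and 0.036 CPM in liver stroma and 28.3, 27.4, 21.8 and 18.8 CPM in peritoneal stroma (log2 fold change −8.38, SE 0.38, adjusted p = 1.30e-06; −9.48 without the liver stroma of mouse 2), and Fgf10, of the same branch, 0.266, 0.0648, 0.589 and 0.036 CPM in liver stroma and 6.31, 5.44, 6.73 and 2.24 CPM in peritoneal stroma (log2 fold change −4.38, SE 0.64, adjusted p = 6.90e-04; −5.23 without the liver stroma of mouse 3). Vegfd, a lymphangiogenic factor, had 1.18, 1.91, 1.95 and 1.01 CPM in liver stroma and 61.7, 39.1, 25 and 29.7 CPM in peritoneal stroma (log2 fold change −4.68, SE 0.34, adjusted p = 1.11e-05), and Pdgfd 1.05 ± 0.405 against 7.5 ± 3.03 CPM (log2 fold change −2.83, SE 0.35, adjusted p = 2.41e-04). These 4 did not overlap. Vegfa, the main factor of blood vessels, was higher in each liver library than in any peritoneal one, at 779, 578, 709 and 666 CPM in liver stroma and 416, 376, 441 and 519.9 CPM in peritoneal stroma, with a difference under the fold threshold (log2 fold change 0.64, SE 0.13, adjusted p = 0.0039). The median of the 26 was −0.68.

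Chemokines went to both sites, 4 of 29 to liver and 11 to peritoneum. Cxcl12, which retains and attracts many leukocytes through Cxcr4, had 12.8, 14.6, 11.5 and 11 CPM in liver stroma and 169, 163, 170.4 and 153 CPM in peritoneal stroma (log2 fold change −3.71, SE 0.11, adjusted p = 6.68e-08), and was among the genes with the smallest p. Ccl2 and Ccl7, which draw monocytes, had 32.1, 42.7, 47.6 and 23 CPM in liver stroma and 257, 249, 287 and 279 CPM in peritoneal stroma and 11 ± 2.55 against 134 ± 19.9 CPM, with log2 fold changes of −2.88, SE 0.21, adjusted p = 9.74e-06, and −3.60, SE 0.18, adjusted p = 2.50e-06. Ccl11, eotaxin, had 4.23, 3.85, 0.248 and 0.396 CPM in liver stroma and 30.1, 29.8, 26.9 and 25.5 CPM in peritoneal stroma (log2 fold change −3.65, SE 0.67, adjusted p = 0.00267), with the liver stroma of mice 1 and 2 above that of mice 3 and 4, and Cxcl5, a neutrophil attractant, 1.28 ± 0.749 against 16.1 ± 7.38 CPM (log2 fold change −3.66, SE 0.47, adjusted p = 3.07e-04). Toward liver stroma, Ccl5, which NK and T cells release, had 10.3, 18.1, 27 and 16.9 CPM in liver stroma and 8.92, 3.7, 1.98 and 4.14 CPM in peritoneal stroma (log2 fold change 1.94, SE 0.43, adjusted p = 0.00688). Its highest peritoneal value, in mouse 1, was just under its lowest liver value. Among 18 chemokine receptors, Cxcr5 was called for liver, Ackr3, which removes Cxcl12, for peritoneum (40.6 ± 6.88 against 136 ± 8.3 CPM, log2 fold change −1.74, SE 0.12, adjusted p = 9.12e-06), and without the peritoneal stroma of mouse 1 5 were called for liver.

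Interleukins and their receptors were called for liver in 3 of 34 and for peritoneum in 6. Il1rl1 (ST2), the receptor for interleukin 33 on mast cells and group 2 innate lymphoid cells, had 8.98, 7.29, 12.2 and 8.9 CPM in liver stroma and 45, 40.02, 89.3 and 50.6 CPM in peritoneal stroma (log2 fold change −2.59, SE 0.27, adjusted p = 8.38e-05) and was highest in the peritoneal stroma of mouse 3, as the mast cell genes were. Il11, a cytokine of activated fibroblasts, had 8.28, 8.84, 6.26 and 8.97 CPM in liver stroma and 14.9, 21.5, 38.2 and 29.8 CPM in peritoneal stroma (log2 fold change −1.69, SE 0.27, adjusted p = 0.00106), and Il15ra, which presents interleukin 15 to NK cells, 4.94 ± 0.777 against 23.6 ± 2.79 CPM (log2 fold change −2.26, SE 0.15, adjusted p = 6.01e-06). Neither overlapped.

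Complement genes, most of which hepatocytes make and some of which fibroblasts make too, went to both sites. Toward peritoneal stroma 9 of 25 genes were called, Serping1, C1s1, C1ra, C2, C3, C4a, C4b, C7 and Cfb, while C1qa was not. Serping1, the C1 inhibitor, had 52.7, 60.3, 66.7 and 30.4 CPM in liver stroma and 969, 1086, 1242 and 722 CPM in peritoneal stroma (log2 fold change −4.26, SE 0.27, adjusted p = 6.01e-06), and C1s1, a protease of C1, 17.9, 18, 32.3 and 15.7 CPM in liver stroma and 329, 289, 261 and 212 CPM in peritoneal stroma (log2 fold change −3.70, SE 0.25, adjusted p = 7.37e-06). Toward liver stroma 4 genes were called, C8a, C9, Cfi and Masp1. C8a had 2.13, 4.47, 1.58 and 1.01 CPM in liver stroma against 3 reads in all peritoneal libraries, a ratio of 83.6 (95% counting interval 28.3 to 408), and C9 1.14, 3.08, 0.744 and 0.432 CPM, with a ratio of 73.2 (95% counting interval 19.97 to 609). The liver stroma of mouse 2 was highest for both, as for Alb. Coagulation genes were called for liver in 9 of 21 and for peritoneum in 3. F2, prothrombin, had 2.2, 5.31, 3.28 and 0.973 CPM in liver stroma and 0.0705, 0, 0 and 0.0733 CPM in peritoneal stroma (log2 fold change 6.17, SE 0.79, adjusted p = 3.16e-04), and Plg, plasminogen, 2.37, 8.71, 2.29 and 0.973 CPM with 2 reads in peritoneal stroma, a ratio of 192 (95% counting interval 53 to 1594). F13a1, the transglutaminase that cross-links fibrin and is made by macrophages, had 104, 78.9, 116 and 76.8 CPM in liver stroma and 802, 180.1, 287 and 265 CPM in peritoneal stroma (log2 fold change −2.03, SE 0.42, adjusted p = 0.00492; −1.39 without the peritoneal stroma of mouse 1), toward peritoneum.

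Retinoid genes, which vitamin A-storing and peritoneal mesenchymal cells both use, were called for peritoneum in 7 of 19 and for liver in 2, Cyp26b1 and Tgm2. Stra6, the receptor that takes up vitamin A from its plasma carrier, had 0.242, 0.0972, 0.155 and 0 CPM in liver stroma and 1.34, 9.73, 3.48 and 9.64 CPM in peritoneal stroma (log2 fold change −5.47, SE 0.80, adjusted p = 7.08e-04), and Crabp1, a retinoic acid binding protein, was at least 23-fold higher in peritoneal stroma, with 0.493, 4.46, 4.09 and 0.88 CPM and no read in liver stroma. Mouse 1 was lowest in peritoneal stroma for both. Rarres2, chemerin, had 35.8 ± 15.6 against 233 ± 50.6 CPM (log2 fold change −2.70, SE 0.30, adjusted p = 1.33e-04). Cyp1b1, an oxidase that makes retinoids among other products, had 19.6, 19.2, 33.3 and 17.9 CPM in liver stroma and 165, 164, 205 and 145 CPM in peritoneal stroma (log2 fold change −2.91, SE 0.21, adjusted p = 1.01e-05), and Ptges, prostaglandin E synthase, 7.1 ± 1.44 against 35 ± 5.38 CPM (log2 fold change −2.30, SE 0.17, adjusted p = 1.17e-05). Gas6, the bridge by which Axl and Mertk receptors take up dead cells, had 30.3, 40.2, 53.7 and 23.6 CPM in liver stroma and 348, 144, 133 and 138 CPM in peritoneal stroma (log2 fold change −2.37, SE 0.37, adjusted p = 9.70e-04; −1.93 without the peritoneal stroma of mouse 1, the highest).

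**Figure D5:**
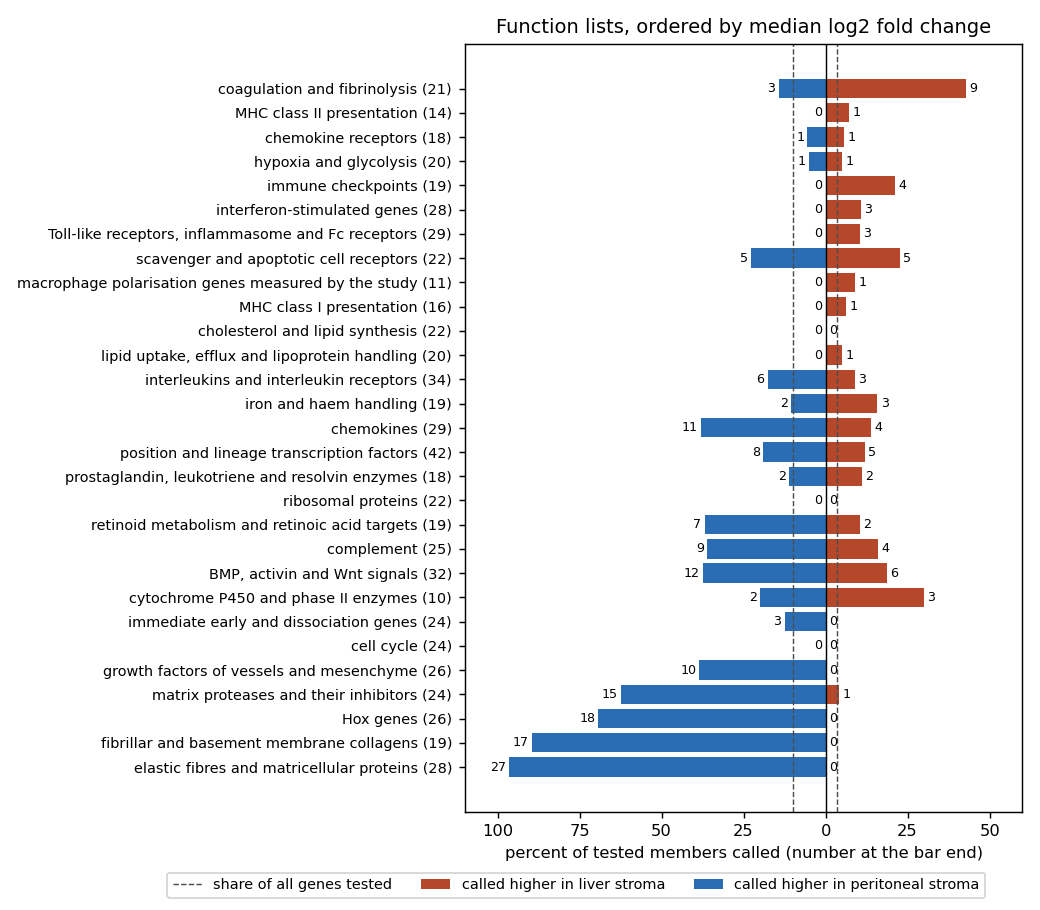
Share of tested members of each function list called higher in liver stroma (bars to the right) and in peritoneal stroma (bars to the left), in per cent with the counts at the bar ends, with the shares over all 14755 tested genes, 3.36% and 9.98%, as lines. Collagens (17 of 19) and elastic and matricellular genes (27 of 28) have the highest peritoneal shares, coagulation (9 of 21) the highest liver share, and ribosomal, cell cycle and cholesterol synthesis genes have no call.

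Macrophage polarisation genes form a list taken from the stromal measurements of the study, so its count is not independent evidence. Of its 11 members 1 was called in these counts. Ltb, lymphotoxin β, was higher in liver stroma, with 30.8, 33.8, 34.5 and 21.1 CPM in liver stroma and 11.5, 12.4, 16.2 and 11.3 CPM in peritoneal stroma (log2 fold change 1.23, SE 0.18, adjusted p = 6.36e-04; 0.65 under leukocyte scaling). Arg1, arginase, had 529, 423, 629 and 461 CPM in liver stroma and 246, 323, 316 and 630.4 CPM in peritoneal stroma and Tnf 262, 164, 299 and 167 CPM in liver stroma and 176, 136, 132 and 216 CPM in peritoneal stroma, both with overlap (log2 fold changes of 0.43, SE 0.27, adjusted p = 0.25, and 0.44, SE 0.23, adjusted p = 0.175, which turned to −0.14 and −0.13 under leukocyte scaling). Il10 had 14.7, 10.6, 13 and 9.62 CPM in liver stroma and 31.3, 6.16, 7.21 and 14.9 CPM in peritoneal stroma, with mouse 1 highest in peritoneal stroma (log2 fold change −0.32, SE 0.45, adjusted p = 0.635; 0.33 without that library). Nos2, the inducible nitric oxide synthase, had 44.1, 51.7, 63.6 and 73.8 CPM in liver stroma and 12.4, 20.5, 16.7 and 69 CPM in peritoneal stroma, and the peritoneal stroma of mouse 4 lay among the liver values. Its log2 fold change was 0.98, SE 0.48, adjusted p = 0.149, and it passed the test with the mouse as a block (1.29, adjusted p = 0.0184) and without the peritoneal stroma of mouse 4 (1.80, adjusted p = 4.81e-04).

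The other polarisation genes stayed under the fold threshold. Tgfb1, Il1b and Il1rn, the interleukin 1 receptor antagonist, were each higher in every liver library than in any peritoneal one, at 830.5 ± 105 against 520.4 ± 85.2 CPM, 3745 ± 616 against 2288 ± 378 CPM and 827 ± 88.4 against 598 ± 76 CPM. Their log2 fold changes were 0.67, SE 0.14, adjusted p = 0.00444, 0.71, SE 0.16, adjusted p = 0.00654, and 0.47, SE 0.12, adjusted p = 0.0127, and Il1rn turned to −0.11 under leukocyte scaling. Mrc1 (CD206) had 647, 569.6, 583 and 553 CPM in liver stroma and 1396, 612, 815 and 838 CPM in peritoneal stroma and overlapped (log2 fold change −0.64, SE 0.22, adjusted p = 0.0458; −0.38 without the peritoneal stroma of mouse 1), Il6 41.1, 85.9, 99.3 and 63.4 CPM in liver stroma and 84.4, 101, 93.3 and 124 CPM in peritoneal stroma (log2 fold change −0.47, SE 0.24, adjusted p = 0.163), and Csf1, the ligand of Csf1r, 191 ± 57 against 317 ± 45.6 CPM without overlap (log2 fold change −0.73, SE 0.20, adjusted p = 0.0212). The median of the 11 was 0.44, and −0.13 under leukocyte scaling.

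Of other genes that the study examined, Mfge8, a bridge to apoptotic cells that dampens dendritic cells, had 90.5, 76.9, 90.3 and 82.3 CPM in liver stroma and 149, 178, 191 and 164 CPM in peritoneal stroma. Every peritoneal library was above every liver library and the difference sat at the fold threshold (log2 fold change −1.01, SE 0.10, adjusted p = 5.87e-05), so the call held in 4 of the 8 fits without 1 library. The values without the liver stroma of mouse 2 or 4 and the peritoneal stroma of mouse 2 or 3 were −0.96, −0.99, −0.996 and −0.96. Ceacam1, an adhesion molecule that restrains NK cells, had 12.1, 18.2, 16.4 and 19.1 CPM in liver stroma and 15.4, 19.1, 6.79 and 9.71 CPM in peritoneal stroma and overlapped (log2 fold change 0.37, SE 0.29, adjusted p = 0.366; −0.21 under leukocyte scaling). Mki67, the Ki67 proliferation antigen, had 92.2, 134, 105 and 127 CPM in liver stroma and 157, 135, 141 and 177 CPM in peritoneal stroma (log2 fold change −0.41, SE 0.13, adjusted p = 0.0403), and none of 24 cell cycle genes was called, with a median of −0.37, while 10 were called for peritoneum under leukocyte scaling. Ptprc had 899, 856, 879 and 927 CPM in liver stroma and 564, 488, 470.1 and 564 CPM in peritoneal stroma (log2 fold change 0.77, SE 0.09, adjusted p = 2.01e-04).

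Most class II antigen presentation genes were under the fold threshold, and 10 of 14 did not overlap between the groups. H2-Aa and H2-Ab1, chains of the class II molecule, had 1711 ± 271 against 1042 ± 128 CPM and 1712 ± 182 against 1038 ± 150.5 CPM (log2 fold changes of 0.72, SE 0.14, adjusted p = 0.00329, and 0.72, SE 0.13, adjusted p = 0.00201). One of 14 class II genes was called, H2-Ob, which tempers peptide loading in B cells, at 17.9, 6.74, 10.01 and 19.4 CPM in liver stroma and 6.38, 7.85, 4.81 and 7.18 CPM in peritoneal stroma (log2 fold change 1.05, SE 0.32, adjusted p = 0.0302). It overlapped and failed with the mouse as a block (0.96, adjusted p = 0.0432), and its call held in 3 of 8 fits without 1 library, with 0.88 and 0.82 without the liver stroma of mouse 1 or 4 and 1.02, 0.91 and 1.08 without the peritoneal stroma of mouse 1, 3 or 4. The class II median was 0.66, and 0.07 under leukocyte scaling. Of 28 interferon-stimulated genes 3 were called for liver, and 9 without the peritoneal stroma of mouse 1. Oas3, an RNA sensor, had 33.1, 53.9, 27.4 and 38.5 CPM in liver stroma and 22.6, 13.7, 9.13 and 12.2 CPM in peritoneal stroma (log2 fold change 1.41, SE 0.29, adjusted p = 0.00448). Under leukocyte scaling it was at 0.87 and 0 interferon-stimulated genes were called for liver.

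Immune checkpoint genes were called for liver in 4 of 19, Vsig4, Ctla4, Cd274 and Btla. Cd274 (PD-L1) had 275, 279, 301 and 301 CPM in liver stroma and 106, 121, 115 and 199.7 CPM in peritoneal stroma, with no overlap and the peritoneal stroma of mouse 4 nearest to the liver values (log2 fold change 1.09, SE 0.19, adjusted p = 0.00163; 0.97 without the peritoneal stroma of mouse 1, under the fold threshold). Btla, an inhibitory receptor of B and dendritic cells, had 29.4 ± 3.62 against 14.4 ± 3.42 CPM (log2 fold change 1.03, SE 0.17, adjusted p = 0.00166), with 4 of 8 calls held and 0.997, 0.97, 0.99 and 0.87 without the liver stroma of mouse 1 or 2 or the peritoneal stroma of mouse 2 or 4. Egln3, an oxygen sensor, was the hypoxia gene called for liver, at 210.1, 208, 233 and 209 CPM in liver stroma and 89.7, 94, 75.9 and 140.1 CPM in peritoneal stroma (log2 fold change 1.11, SE 0.17, adjusted p = 8.70e-04; 0.98 without the peritoneal stroma of mouse 3), with 1 of 20 called for each site. Immediate early genes, which tissue dissociation is known to raise, were called for peritoneum in 3 of 24. Fos had 583, 1224, 917 and 678 CPM in liver stroma and 1818, 2325, 2027 and 1480.3 CPM in peritoneal stroma (log2 fold change −1.17, SE 0.23, adjusted p = 0.004), Egr1 1133 ± 393 against 2494 ± 453 CPM (log2 fold change −1.14, SE 0.23, adjusted p = 0.00413) and Jun 484 ± 74.4 against 1001 ± 117 CPM (log2 fold change −1.05, SE 0.13, adjusted p = 2.92e-04; −0.96 and −0.995 without the liver stroma of mouse 1 or the peritoneal stroma of mouse 2). The part of dissociation in these differences was not tested. Under leukocyte scaling Cd274 was at 0.53, Btla at 0.46 and Egln3 at 0.54, all under the fold threshold, and 2 checkpoint genes were called for liver and 1 for peritoneum, with a median of −0.07 in place of 0.51. None of 22 ribosomal protein genes was called, with a median of 0.05.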

How the data were processed

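RNA of sorted stromal cells was sequenced (mRNA libraries, Illumina HiSeq). The values are counts of reads per gene, deposited by the authors as 1 table. The study's methods name TopHat2 and mm9, while the submitters' processing notes name FastQC, Bowtie 0.12.2, mm8 and mm10, so the build is uncertain. The counting program, its annotation and its use of strand are not given in the sources used here, and genes that overlap or share reads with close copies are uncertain.

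The deposited counts of the 8 stromal libraries were filtered (filterByExpr, minimum count 10), scaled by TMM and fitted with edgeR 4.0.16 in R 4.3.3, liver against peritoneal stroma, without other terms. Adjusted p-values are Benjamini-Hochberg values from the quasi-likelihood F-test over all 14755 genes tested. SE is the log2 fold change divided by the square root of F. Alternatives used DESeq2 1.42.0, other scalings, filters and terms, and left out each library in turn. Python 3.11.15 made the summaries and figures. Intervals of ratios are 95% intervals for counting error only. Groups came from the sample titles, whose mouse numbers show that both tumours came from 1 animal. The deviations of same-numbered libraries from their group means correlated at −0.003, 0.129, 0.112 and 0.271 for mice 1 to 4. Libraries were compared with each other and no pair agreed within sampling noise, so all counted as separate. Sequencing lanes were mixed over the sites, with 3 lanes in all.

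Named were, among calls with at least 100 counts, no overlap and 1 direction in 4 mice, the 12 largest differences per direction. To these were added up to 4 called members (mean of at least 1 CPM) and the first 2 members of each of 63 lists, the genes the study measured in stroma, and the 6 smallest p per direction. The text gives values for 171 of these genes, and a few others are not reported here. Members and lists were chosen with earlier results of these data known. Tested on simulated data with 14626 genes, the fit called 89 of 100 changes of 1.5 and 97 of 100 changes of 2.0 on the log2 scale, with 0 false calls. The changed genes had a mean above 1 CPM and went up and down in equal number, and no mouse effect or outlying library was simulated. The simulation thus gives no error rate for the real libraries or for genes at lower levels.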

Additional observations from a re-analysis of the deposited data

Results flagged for a closer look

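In 35 of 412 groups of 4 libraries, 1 library lay far from the other 3, by the gap to its neighbour over the range of the group (Dixon's 95% value). For independent groups of normally distributed values chance gives about 1 in 20, and 8.5% were seen. These groups share libraries, and some sums share genes. The values were CPM without a log, so the shares do not test for an excess. Values are in CPM, each against the range of the other 3 libraries of the group. In the liver stroma of mouse 2 these were the summed markers of leukocytes at 5240 against 6110 to 6190, the summed markers of small peritoneal macrophages and monocyte-derived macrophages at 6650 against 8500 to 8750, Bhmt at 27.6 against 1.51 to 5.19, Ush1g at 3.43 against 0.918 to 1.21, Oit3 at 87.8 against 31.2 to 35.8, Gata4 at 42.1 against 19.7 to 21.9, Clec1b at 30.1 against 14.1 to 16.5, Sfrp4 at 1.13 against 0.504 to 0.589, Spic at 6.64 against 1.77 to 2.56 and Cd163 at 57.5 against 32.8 to 35.3. In the liver stroma of mouse 3 these were the summed markers of neutrophils at 3650 against 2560 to 2670, Pdpn at 26.7 against 6.42 to 9.85, Cd3e at 2.29 against 1.3 to 1.37, C1s1 at 32.3 against 15.7 to 18, Cyp1b1 at 33.3 against 17.9 to 19.6 and Egln3 at 233 against 208 to 210.0. In the peritoneal stroma of mouse 1 these were the summed markers of neutrophils at 6090 against 954 to 1080, the summed markers of red blood cells and precursors at 25.3 against 0.0892 to 0.477, Apoa1 at 1.52 against 0.357 to 0.403, Stab2 at 1.83 against 0.52 to 0.623, Gpr182 at 3.95 against 0.747 to 1.17, Scg3 at 12.1 against 1.5 to 2.66, S100a8 at 1040 against 55.6 to 59.9, Cd3d at 1.83 against 0.312 to 0.477, Eln at 512 against 249 to 268 and Gas6 at 348 against 133 to 144. In the peritoneal stroma of mouse 3 these were the summed markers of NK cells and ILC1 at 110.0 against 142 to 147, Cilp at 1010 against 334 to 444, Prf1 at 0.715 against 1.76 to 1.94 and Csf1 at 386 against 293 to 297. In the peritoneal stroma of mouse 2 these were Galnt17 at 30.0 against 24.7 to 25.6 and Lrrc15 at 181 against 91.6 to 106. In the peritoneal stroma of mouse 4 these were Cd3e at 19 against 8.16 to 8.74, Nos2 at 69 against 12.4 to 20.5 and Cd274 at 200 against 106 to 121.

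The liver stroma of mouse 2 and the peritoneal stroma of mouse 1 had 10 each. In the liver of mouse 2 the high values included the sinusoidal and Kupffer genes Oit3, Gata4, Clec1b, Spic and Cd163 and the hepatocyte gene Bhmt, beside a low leukocyte sum. In the peritoneal stroma of mouse 1 they included S100a8 and the neutrophil and red cell sums. What these libraries share was not tested.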

How the results depend on the processing

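With all libraries the fit gave 1968 calls, 496 for liver and 1472 for peritoneum. Without the fold threshold there were 4926 (2203 and 2723), and with scaling to leukocyte genes 2969 (169 and 2800). Leaving out 1 library gave 1834 to 2137 calls, 435 to 586 for liver and 1386 to 1567 for peritoneum. With the replicate block, which pairs the tumours of a mouse, there were 1983 calls (500 and 1483), 1899 of them shared with the fit without it, and of the genes with values above it changed the call of Spic, Mmp9, H2-Ob and Nos2 and of no other. DESeq2 gave 2345 calls (632 and 1713), lane as a term 1906 (458 and 1448), a filter at 1 CPM in 4 libraries 1664 (372 and 1292), no filter 2250 (570 and 1680), all 16 sorted libraries in 1 fit 1992 (618 and 1374), and unadjusted p 2107 (569 and 1538).

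Leukocyte scaling ended the calls for liver of Ccl24, Csf3r, Il1r2, Ncr1 (0.83), Clec9a, Siglech, Mmp9, Ltb, Cd274, Btla, H2-Ob (0.44), Oas3 and Egln3 and gave calls for peritoneum to Trem2, Gata2, Mrc1, Il6 and Csf1. Lane as a term ended the calls of Ncr1 (adjusted p = 0.0641), H2-Ob (0.0599), Prg4 (0.0625), Spic (0.0647) and Mfge8 (log2 fold change −0.95) and gave calls to Marco (0.0373) and Nos2 (0.013). The fit of all 16 sorted libraries ended those of Prox1, Prg4, Csf3r, Il1r2, F13a1, Mfge8, Btla, Jun and H2-Ob and gave one to Marco. Signs changed in some genes that were not called. Under leukocyte scaling the log2 fold change was −0.30 for Pecam1, −0.21 for Cdh5, −0.15 for Csf1r, −0.22 for Msln, −0.14 for Arg1, −0.13 for Tnf, −0.11 for Il1rn and −0.21 for Ceacam1, by the shift of that scaling. Over the fits with 1 library left out it ran from −0.34 to 0.022 for Adgre1, from −0.58 to 0.54 for Cd3d, from −0.58 to 0.33 for Il10 and from −0.64 to 2.07 for S100a8, in each with the highest value where the peritoneal stroma of mouse 1 was left out. S100a8 was also at 0.60 with lane as a term and at 1.30 with the block. Without that library the calls for liver became 6 of 13 T cell genes, 2 of 9 lymphatic, 2 of 14 stellate, 0 of 16 large peritoneal macrophage, 1 of 19 retinoid, 5 of 19 iron and 0 of 14 class II genes, and those for peritoneum 0 of 20 hypoxia genes. With the block they became 6 of 11 plasmacytoid, 5 of 28 interferon-stimulated, 3 of 42 position and lineage, 0 of 12 mast cell, 2 of 9 lymphatic, 2 of 18 chemokine receptor and 0 of 24 protease genes.

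Of 171 genes with values, 126 kept direction and call in each of the 19 other settings in which they were tested. The filter at 1 CPM in 4 libraries tested 160 of the 171. Unadjusted p and no fold threshold are looser cuts on the same fit, under which no call can be lost. With 4 mice per site and sorted cells of mixed type, the tests cover the spread between mice and not the share of each cell type. Depth limits genes near the floor of 0.0725 to 0.134 CPM, whose ratios carry wide counting intervals.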

Other observations

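The remaining cell type lists are described by count. Of 13 monocyte genes, 3 were called for liver, Plac8 and Treml4 among them, and 3 (F13a1, Vcan and Ace) for peritoneum, with a median of 0.57 and summed levels between 3512 and 4501 CPM in liver stroma and between 4532 and 5139.6 CPM in peritoneal stroma. Without the peritoneal stroma of mouse 1, 6 were called for liver. Plac8 marks classical monocytes and Treml4 and Ace patrolling ones, so the patrolling markers went to both sites. None of 8 tested eosinophil genes was called, and 3 were for liver without that library. Among 14 genes of mature dendritic cells 1, Ccl5, was called for liver, among 10 of cDC2 2 (Cd209a and Ltb), and among 9 of innate lymphoid cells of groups 2 and 3 Ncr1 was called for liver and Il1rl1 for peritoneum. Plasma cell genes gave 1 call for each site, Mzb1 for liver and Fkbp11 for peritoneum. Of 7 platelet genes Itga2b was called for liver and Gp1bb and Pf4 for peritoneum.

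Lists of tissues outside the tumour were at low levels. Of 14 genes of exocrine pancreas and gut epithelium, 8 were tested and none was called, with sums between 33.2 and 50.7 CPM in liver stroma and between 26.9 and 46.3 CPM in peritoneal stroma, and the pancreatic enzymes Prss2, Cela2a and Pnlip were too low to be tested. Of 12 adipocyte genes 6 were too low to be tested, Adipoq, Plin1 and Lep among them, and none was called, so the fat-cell genes proper were not detectable by this test at either site. Of 7 nerve and glia genes 1, Uchl1, was called for peritoneum. Globin genes were nearly absent: 1 of 12 red cell genes was tested, and the sums were 25.3, 0.0892, 0.195 and 0.477 CPM in peritoneal stroma, in which mouse 1 stood out, against 1.33, 1.23, 2.39 and 2.41 CPM in liver stroma.

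Metabolic and sensing lists were also described by count. None of 22 genes of cholesterol and lipid synthesis was called, though 21 lay toward liver with a median of 0.37 (−0.22 under leukocyte scaling). Of 20 genes of lipid uptake and efflux, Apoc1 was called for liver. Iron genes gave 3 calls for liver (Hpx, Slc40a1 and Spic) and 2 for peritoneum (Cd163 and Slc39a14) of 19. Scavenger and dead-cell receptors gave 5 of 22 for each site. Toll-like receptors, inflammasome and Fc receptor genes gave 3 of 29 for liver, Naip1, Tlr11 and Fcgr4, with a median of 0.44, and 1 without the peritoneal stroma of mouse 1. Of 16 MHC class I genes Cd1d1 was called for liver, and of 18 prostaglandin and leukotriene genes Alox12 and Hpgd were called for liver and Ptges and Ptgir for peritoneum.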
